A study of Mus musculus with 12 samples.

Results

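Antigen presentation by the major histocompatibility complex (MHC) was described here through 10 mouse genes, the class I genes H2-K1, H2-D1, B2m, Tap1 and Tap2 and the class II genes H2-Ab1, H2-Aa, H2-Eb1, Cd74 and Ciita. They were taken by symbol from a raw count table of 49315 genes, and all 10 were found. The genes were selected on their CPM values in all 12 libraries, with earlier results known, among them the low H2-Ab1, H2-K1 and Tap1 of knockout libraries. Their values across genotypes are therefore given as a description. Calls of members appear only beside the share of all genes, with nothing read from them. Test results are otherwise given for other genes of the pathway, whose lists were also chosen with earlier results known.

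The libraries are bulk RNA sequencing of primary epiphyseal chondrocytes from mice 5 days old, in 4 genotypes with 3 libraries each: Phlpp1 KO, Phlpp2 KO, Phlpp1/2 KO and WT. Phlpp1 and Phlpp2 encode phosphatases that remove phosphate from kinases such as Akt, and Phlpp1/2 KO is labelled as a knockout of both. Cells of every genotype were released with collagenase, frozen, thawed and kept overnight on plastic with serum before RNA was taken, and no cytokine is named. All libraries were labelled female. The strain label was C57BL6 for Phlpp1 KO and WT and for Phlpp2 KO 1 and 2, C57BL7 for Phlpp2 KO 3, and C57BL8, C57BL9 and C57BL10 for Phlpp1/2 KO 1, 2 and 3. The labels name no Cre or floxed allele and do not say how many mice gave each library, so p-values measure the spread between these libraries, which may be partly technical.

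Library totals ran from 21706337 to 33115345 counts, and levels are CPM (counts scaled by TMM-adjusted library totals), where 1 count is worth 0.0295 to 0.0453 CPM. Phlpp1 stood at 8.77 to 9.46 CPM in Phlpp1 KO and 7.71 to 8.83 CPM in Phlpp1/2 KO, against 35.1 to 43.8 CPM in WT. Phlpp2 stood at 16.8 to 19.4 CPM in Phlpp2 KO and 10.2 to 11.4 CPM in Phlpp1/2 KO, against 22.4 to 28.1 CPM in WT. RNA of both targeted genes thus remained in their knockouts, most of all Phlpp2 in Phlpp2 KO, and these counts do not measure protein. Phlpp1 KO 1 and Phlpp1/2 KO 1 stood apart in the female-specific RNA Xist, at 13.9 and 3.77 CPM, against 277.9 to 586.9 CPM in the other 10 libraries. Phlpp1/2 KO 1 also held 108.5 CPM of 4 Y-linked genes, against its label, where no other library passed 1.23 CPM. Several fold changes and calls are also given without both of these libraries, while ratios, marker sums and correlations use all 12 libraries. The 9 chondrocyte markers, collagens and aggrecan among them, summed to 29955 to 54330 CPM in the 12 libraries, and edgeR called 0 of the 9 in any of the 5 comparisons, with 1 at an unadjusted p under 0.05 in Phlpp1 KO against Phlpp2 KO and 1 in the interaction. For the interaction DESeq2 called 1 and limma-voom 0.

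Class I molecules sit on nearly all nucleated cells. A heavy chain folds with the light chain encoded by B2m around a peptide that the proteasome cut in the cytosol and that the transporter of Tap1 and Tap2 moved into the endoplasmic reticulum. Class II molecules are alpha and beta chain pairs that load peptides from endosomes after the invariant chain, Cd74, has been cut away. They are known from B cells, dendritic cells and macrophages, and other cells make them mainly after interferon gamma induces the coactivator Ciita. Growth plate chondrocytes carry class I and are not known as professional antigen-presenting cells.

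The H2 members lie with Tap1 and Tap2 in the mouse MHC on chromosome 17, so 7 of the 10 members share that chromosome. In GENCODE vM21 on GRCm38, H2-K1 spans chr17:33996017-34000347 on the minus strand and H2-D1 chr17:35262730-35267499 on the plus strand. H2-Ab1 spans chr17:34257689-34269419 and H2-Eb1 chr17:34305867-34316674, both on the plus strand, with H2-Aa between them on the minus strand at chr17:34282744-34287823. Upstream bases of 4 members are shown because their promoters carry the elements through which interferon, NF-kB and the class II regulators are known to act. They come from RefSeq promoter windows of build GRCm38.p6, each 250 bases before to 50 after a start. Windows were found for 6 of the 10 members: H2-Aa, H2-Eb1, H2-K1, H2-D1, B2m and Tap1. The runs read 5′ to 3′ on the gene's strand and end just before the first exon, and capitals mark the matches named after them.
H2-Aa, chr17:34287824-34288023, minus strand: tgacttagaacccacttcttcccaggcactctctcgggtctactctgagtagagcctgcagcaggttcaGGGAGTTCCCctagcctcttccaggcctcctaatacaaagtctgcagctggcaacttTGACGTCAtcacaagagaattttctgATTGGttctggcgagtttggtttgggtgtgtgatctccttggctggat
H2-Eb1, chr17:34305667-34305866, plus strand: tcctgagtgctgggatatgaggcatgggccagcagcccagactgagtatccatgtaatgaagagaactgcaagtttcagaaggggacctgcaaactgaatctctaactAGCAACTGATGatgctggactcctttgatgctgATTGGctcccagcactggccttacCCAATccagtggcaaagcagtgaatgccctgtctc
H2-K1, chr17:34000348-34000547, minus strand: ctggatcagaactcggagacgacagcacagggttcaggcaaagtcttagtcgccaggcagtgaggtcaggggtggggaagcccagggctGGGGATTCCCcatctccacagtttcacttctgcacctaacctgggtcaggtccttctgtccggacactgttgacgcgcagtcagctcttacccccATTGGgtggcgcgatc
B2m, chr2:122147487-122147685, plus strand: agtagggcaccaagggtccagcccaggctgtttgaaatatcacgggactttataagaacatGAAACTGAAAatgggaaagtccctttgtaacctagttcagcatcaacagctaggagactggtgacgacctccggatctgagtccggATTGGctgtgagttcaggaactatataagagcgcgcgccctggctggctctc

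The letters searched, on both strands, were AGNNACNGATG for the X box bound by RFX proteins, CCAAT for the Y box bound by NF-Y, and TGACGTCA for the cAMP response element bound by Creb1. Interferon and inflammation motifs were added, namely GAAANNGAAA for the interferon-stimulated response element, TTCNNNGAA for the gamma-activated site and GGGNNTTCCC for the kappa B site. H2-Eb1 held an X box match 92 bases before its start, followed by CCAAT matches at 59 and 35 bases. H2-Aa held the kappa B letters GGGAGTTCCC at 131 bases, TGACGTCA at 74 bases and a CCAAT match at 48 bases. H2-K1 held GGGGATTCCC 111 bases before its start and a CCAAT match at 16 bases. Counted from its other RefSeq start, these lay at 125 and 30 bases, with another CCAAT match at 6 bases. H2-D1 held the same kappa B letters at 171 bases and CCAAT matches at 76 and 53 bases. Tap1 held a CCAAT match at 222 bases. B2m held an interferon-stimulated match at 139 bases and a CCAAT match at 53 bases. CCAAT on the opposite strand reads ATTGG. Over all 32851 promoter windows the X box letters occurred in 0.968%, CCAAT in 37.4%, TGACGTCA in 1.79%, GAAANNGAAA in 3.44%, TTCNNNGAA in 8.30% and GGGNNTTCCC in 1.75%, with CCAAT free to overlap the longer motifs. A match describes the letters and not binding.

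Scaled by the longest coding transcript, the members spanned a wide range in WT chondrocytes. B2m, the light chain of every class I molecule, was highest at 144 CPM per kb (range over the WT libraries 130 to 153). The classical heavy chains H2-K1 and H2-D1 followed at 44.5 (41.4 to 48.6) and 44.0 CPM per kb (42.1 to 46.3), and these neighbours overlapped. H2-Ab1, the beta chain of the class II molecule I-A, came next at 13.3 CPM per kb (12.7 to 14.0), above the transporter subunit Tap1 at 8.65 CPM per kb (8.24 to 9.24). Tap2, the other subunit, stood at 1.75 CPM per kb (1.54 to 2.04), and H2-Eb1, the beta chain of the class II molecule I-E, at 1.28 CPM per kb (1.19 to 1.40). The invariant chain Cd74 was at 0.263 CPM per kb (0.161 to 0.358). H2-Aa, the alpha chain that pairs with H2-Ab1, was at 0.0799 CPM per kb (0.0401 to 0.136), and Ciita was lowest at 0.0273 CPM per kb (0.0127 to 0.0452), their ranges overlapping.

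**Figure D1:**
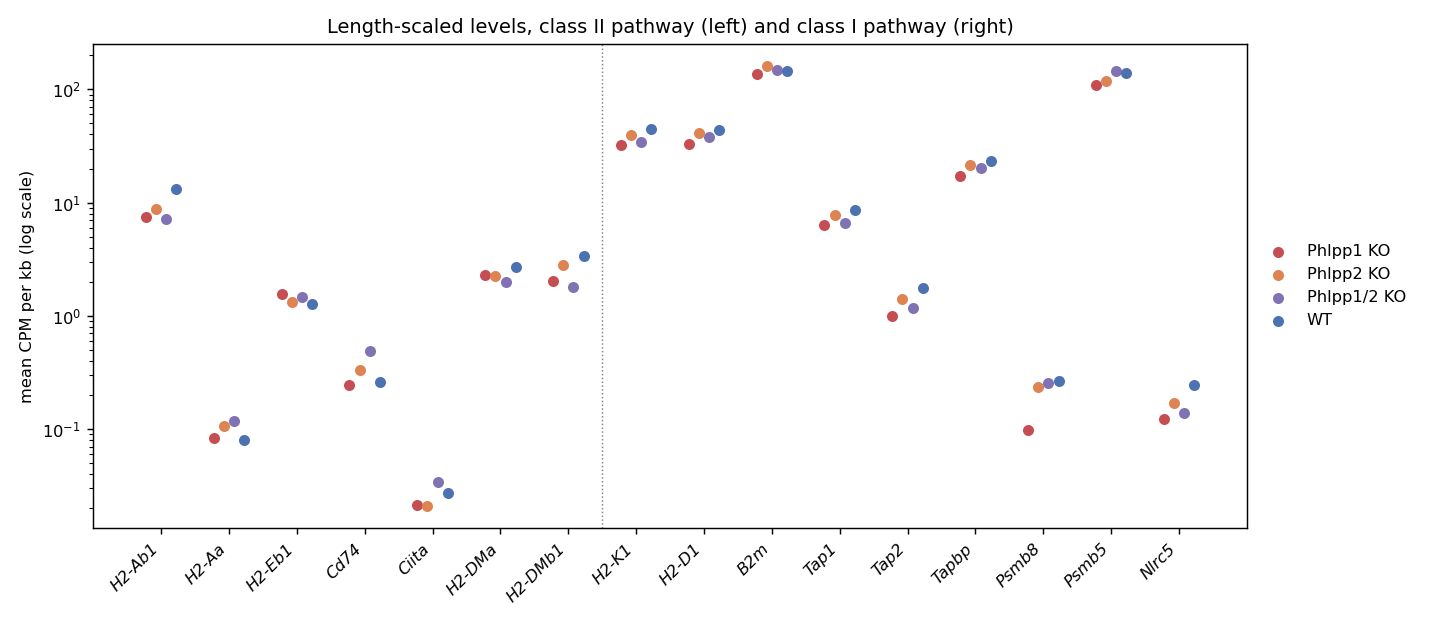
Mean CPM per kb of longest coding transcript on a log axis for class II pathway genes (left of the dotted line) and class I pathway genes (right), 1 point per genotype over 3 libraries. In WT, H2-Ab1 stands at 13.3 CPM per kb while its partner H2-Aa stands at 0.0799 CPM per kb.

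The class II genes were thus unequal, with H2-Ab1 far above H2-Aa, Cd74 and Ciita. Over the 12 libraries H2-Ab1 gathered 3750 counts, against 38 for its partner H2-Aa, 165 for Cd74 and 53 for Ciita. H2-Ab1 exceeded H2-Aa by 98.7-fold in summed counts, and by 42.5-fold to 340.0-fold in single libraries. H2-Eb1 gathered 811 counts while the partner chain H2-Ea, listed in the annotation as a polymorphic pseudogene (in the table as H2-Ea-ps) and known to be disrupted in C57BL/6 mice, had a single count in 1 library. The peptide exchange chains H2-DMa and H2-DMb1 averaged 4.62 and 3.51 CPM, and H2-Ob had no count in any library, where 3 counts would be 0.0886 to 0.136 CPM. The GENCODE model of H2-Ab1 holds 8 transcripts, and what share of its counts came from each was not tested.

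H2-Ab1 was lower in all 9 knockout libraries than in any WT library. Phlpp1 KO had 11.2, 8.08 and 8.03 CPM, Phlpp2 KO 9.51, 11.4 and 11.2 CPM, and Phlpp1/2 KO 8.66, 9.70 and 7.53 CPM, against 15.4, 15.9 and 16.9 CPM in WT. The highest knockout library, Phlpp2 KO 2, thus lay below the lowest WT library, while the 3 knockouts overlapped each other. Means were 9.12 ± 1.84 CPM in Phlpp1 KO, 10.7 ± 1.05 CPM in Phlpp2 KO and 8.63 ± 1.08 CPM in Phlpp1/2 KO, against 16.1 ± 0.793 CPM in WT (SD, n = 3 each). The fitted log2 fold change was −0.82 (SE 0.14) for Phlpp1 KO, −0.58 (SE 0.14) for Phlpp2 KO and −0.90 (SE 0.14) for Phlpp1/2 KO. Between Phlpp1 KO and Phlpp2 KO it was −0.23 (SE 0.14), and the interaction, by which the double knockout departs from the sum of the single ones, was 0.50 (SE 0.20). The 3 comparisons share the WT libraries, and the share of all genes with all 9 knockout libraries below WT was not computed. Without both low-Xist libraries the log2 fold change was −0.98 in Phlpp1 KO and −0.89 in Phlpp1/2 KO.

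H2-Aa did not share that pattern at its depth of 1 to 6 counts a library. Phlpp1 KO had 0.0673, 0.0986 and 0.118 CPM, Phlpp2 KO 0.145, 0.0993 and 0.115 CPM and Phlpp1/2 KO 0.161, 0.0612 and 0.177 CPM, against 0.0453, 0.0721 and 0.153 CPM in WT. All 4 groups overlapped, and H2-Aa was too low for the fit. H2-Eb1 ranged from 2.32 to 3.06 CPM in Phlpp1 KO, 1.61 to 2.496 CPM in Phlpp2 KO and 2.097 to 2.81 CPM in Phlpp1/2 KO, against 1.98 to 2.33 CPM in WT. Its groups overlapped, with log2 fold changes against WT of 0.28 (SE 0.20), 0.05 (SE 0.20) and 0.21 (SE 0.20) in the same order.

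Cd74, whose product blocks the class II groove until it is cleaved, rested on 5 to 25 counts a library. Phlpp1 KO had 0.168, 0.394 and 0.470 CPM, Phlpp2 KO 0.470, 0.529 and 0.422 CPM and Phlpp1/2 KO 0.741, 0.765 and 0.561 CPM, against 0.226, 0.504 and 0.382 CPM in WT. The Phlpp1/2 KO libraries lay above all WT libraries, with a log2 fold change of 0.85 (SE 0.35), while the single knockouts overlapped WT. In Phlpp1 KO it was −0.15 (SE 0.40), and 0.20 without both low-Xist libraries. Ciita had 3 to 5 counts a library in Phlpp1 KO, 0 to 6 in Phlpp2 KO and 4 to 9 in Phlpp1/2 KO, against 2 to 6 in WT, so no difference was detectable at this depth. Ciita also shares 329 exon bases with Dexi on the opposite strand, and the strand setting of the counting is not given in the sources used here.

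Macrophage RNA was measured beside the class II genes because macrophages express the whole set. The 16 macrophage markers summed to 49.1 to 54.1 CPM in Phlpp1 KO, 51.6 to 68.6 CPM in Phlpp2 KO and 53.9 to 73.4 CPM in Phlpp1/2 KO, against 56.2 to 62.5 CPM in WT. Phlpp1 KO lay below all WT libraries in this sum, and the other knockouts overlapped WT. The markers differed in direction: of the 13 tested, 8 were higher and 5 lower in Phlpp1 KO, 10 higher and 3 lower in Phlpp2 KO, and 11 higher and 2 lower in Phlpp1/2 KO, each against WT. Cd68, named with the next markers after their values were seen, had 5.12 to 7.13 CPM in Phlpp1 KO, 6.48 to 9.26 CPM in Phlpp2 KO and 6.45 to 7.73 CPM in Phlpp1/2 KO, against 8.14 to 9.73 CPM in WT. C1qa had 0.591 to 0.948 CPM in Phlpp1/2 KO, against 0.153 to 0.453 CPM in WT, and Fcgr3 1.24 to 2.03 CPM in Phlpp1/2 KO, against 0.588 to 0.937 CPM in WT. In Phlpp1/2 KO C1qa, C1qb, Ptprc, Tyrobp, Lyz2, Mrc1 and Fcgr3 lay above all WT libraries, as Cd74 did. Cd68 lay below all WT libraries there, and the remaining markers overlapped WT. In Phlpp2 KO C1qb, Mrc1 and Fcgr3 also lay above all WT libraries. In Phlpp1 KO Adgre1 and Mrc1 lay above them and Cd68 below. The share of all genes above all WT libraries was not computed. The part of macrophage RNA in the Cd74 value was not tested. edgeR called 0 of the 13 tested markers in any of the 5 comparisons, with 1 at an unadjusted p under 0.05 in Phlpp1 KO (lower), 3 in Phlpp2 KO (all higher) and 6 in Phlpp1/2 KO (all higher) against WT. It was 3 between Phlpp1 KO and Phlpp2 KO and 1 for the interaction. DESeq2 called 1 in Phlpp1 KO against WT and 0 in the other 4 comparisons, and limma-voom 0 in each. Most of the sum was Cd14, Lyz2 and Cd68, while 10 of the 16 markers averaged under 1 CPM. Cx3cr1 and Aif1 were at or under 0.0783 CPM in every library. Csf1r had 1.08 to 1.76 CPM in Phlpp1 KO and 1.55 to 2.53 CPM in Phlpp2 KO. In Phlpp1/2 KO Csf1r had 1.41 to 2.81 CPM, against 1.53 to 2.45 CPM in WT. The 9 dendritic cell markers summed to 10.8 to 11.6 CPM in Phlpp1 KO, 10.8 to 11.6 CPM in Phlpp2 KO and 8.59 to 11.7 CPM in Phlpp1/2 KO, against 9.28 to 11.4 CPM in WT, with 7 of the 9 under 1 CPM on average. The 6 B cell markers summed to 0.235 to 0.493 CPM in Phlpp1 KO, 0.132 to 0.253 CPM in Phlpp2 KO and 0.236 to 0.419 CPM in Phlpp1/2 KO, against 0.360 to 0.634 CPM in WT, with Ms4a1 at 0 in every library. The 5 T cell markers summed to at most 0.122 CPM with Cd3g at 0, and the 5 neutrophil markers to at most 1.18 CPM. The 6 endothelial markers summed to 2.05 to 12.1 CPM in Phlpp1 KO, 4.22 to 11.3 CPM in Phlpp2 KO and 6.02 to 8.63 CPM in Phlpp1/2 KO, against 4.09 to 7.39 CPM in WT. Divided by the macrophage sum, H2-Ab1 was 0.149 to 0.229 in Phlpp1 KO, 0.139 to 0.217 in Phlpp2 KO and 0.111 to 0.180 in Phlpp1/2 KO, against 0.246 to 0.302 in WT, so no knockout library reached a WT library in this ratio. That ratio uses the H2-Ab1 values by which the gene was chosen, so it is a description. The part of other cells in the class II values was not tested. In bulk RNA, fewer cells of a type and less RNA per cell cannot be told apart.

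**Figure D2:**
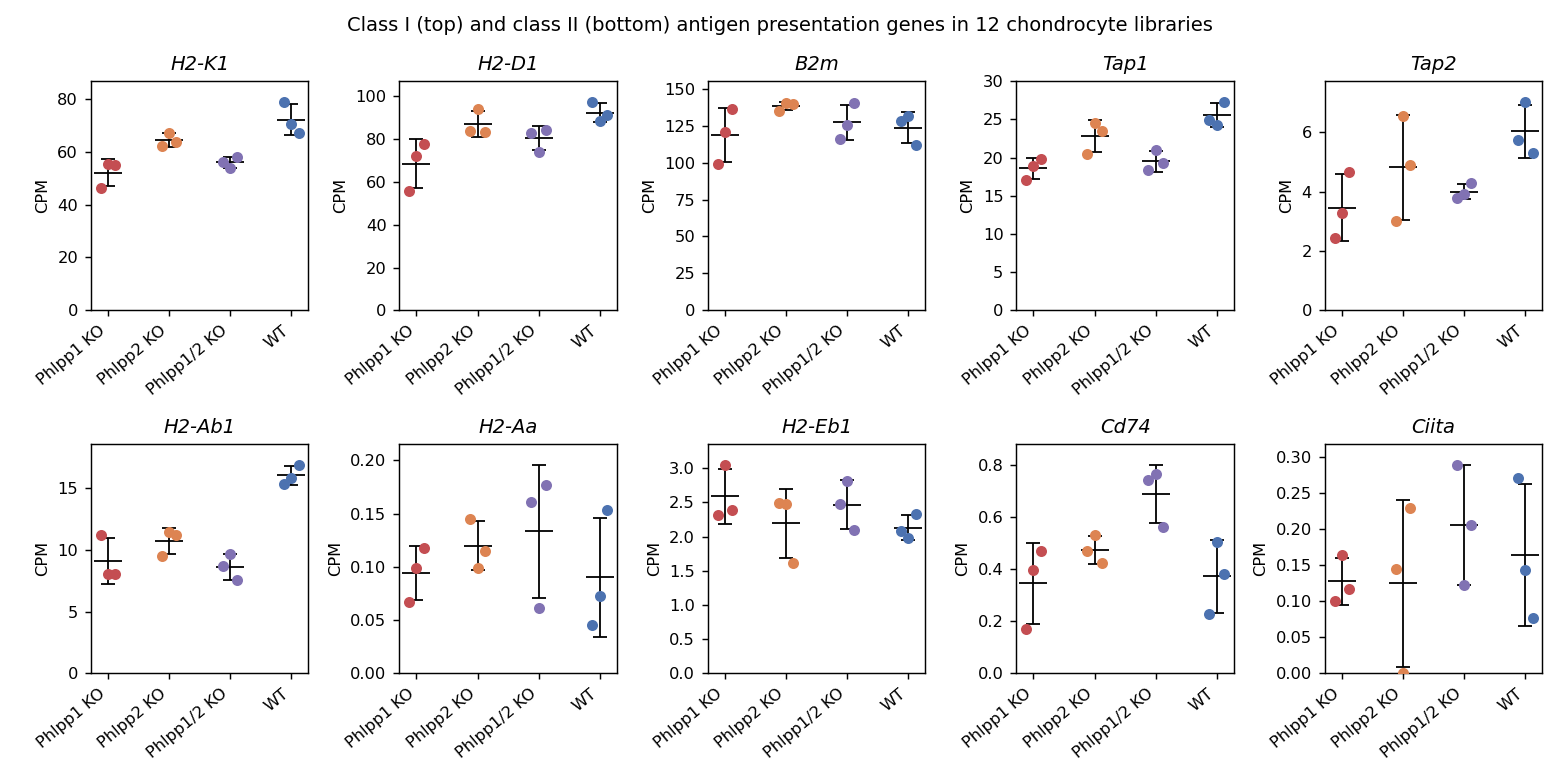
CPM of the 10 members in each library, with linear axes that start at 0. Points are libraries, and bars give the mean and SD of 3 libraries. H2-Ab1 stands between 7.53 and 11.4 CPM in the 9 knockout libraries and between 15.4 and 16.9 CPM in WT, while B2m overlaps between most groups.

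The class I heavy chains were lower in Phlpp1 KO and Phlpp1/2 KO than in every WT library. H2-K1 had 46.1, 55.3 and 54.8 CPM in Phlpp1 KO, 62.2, 67.2 and 63.5 CPM in Phlpp2 KO and 56.0, 53.7 and 58.1 CPM in Phlpp1/2 KO, against 78.8, 70.5 and 67.1 CPM in WT. Phlpp2 KO lay between the other knockouts and WT, and its highest library, at 67.2 CPM, just reached the lowest WT library. The log2 fold change against WT was −0.47 (SE 0.08) in Phlpp1 KO, −0.16 (SE 0.08) in Phlpp2 KO and −0.37 (SE 0.08) in Phlpp1/2 KO.

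H2-D1, the other classical heavy chain, kept the same order of genotypes. It had 55.6, 72.2 and 77.8 CPM in Phlpp1 KO, 83.7, 93.9 and 83.5 CPM in Phlpp2 KO and 83.1, 74.0 and 84.3 CPM in Phlpp1/2 KO, against 97.4, 88.5 and 91.4 CPM in WT. Phlpp1 KO 1, a library with low Xist, was the lowest of all 12 for both heavy chains. The log2 fold change was −0.43 (SE 0.10) in Phlpp1 KO, −0.09 (SE 0.10) in Phlpp2 KO and −0.20 (SE 0.10) in Phlpp1/2 KO, and without both low-Xist libraries it was −0.28 in Phlpp1 KO. For H2-K1 that refit gave −0.37 in Phlpp1 KO and −0.35 in Phlpp1/2 KO.

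These chains are close copies, so some reads could be placed in either gene. Their longest coding sequences were identical at 984 of 1077 aligned bases, or 91.4%, and H2-Q4 was identical to H2-K1 at 90.3%. The 120 aligned bases with the fewest differences, all in GENCODE coding sequence of chromosome 17, are shown with the differing base in capitals.
H2-K1, coding bases 656 to 775: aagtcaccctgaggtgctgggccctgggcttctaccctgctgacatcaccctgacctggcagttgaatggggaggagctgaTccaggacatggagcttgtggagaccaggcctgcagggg
H2-D1, coding bases 665 to 784: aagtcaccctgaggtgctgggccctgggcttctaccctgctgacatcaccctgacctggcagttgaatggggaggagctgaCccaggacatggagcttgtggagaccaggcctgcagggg
With the counts of H2-K1 and H2-D1 summed, which removes any exchange of reads between them, the log2 fold change against WT was −0.43 (SE 0.09) in Phlpp1 KO, −0.11 (SE 0.09) in Phlpp2 KO and −0.26 (SE 0.09) in Phlpp1/2 KO. With every class I chain of the lists added, it was −0.43 (SE 0.08), −0.11 (SE 0.08) and −0.27 (SE 0.08) in the same order.

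B2m did not follow the heavy chains it pairs with. It had 99.3, 120.4 and 136.2 CPM in Phlpp1 KO, 135.0, 140.2 and 139.4 CPM in Phlpp2 KO and 116.0, 125.4 and 140.0 CPM in Phlpp1/2 KO, against 127.9, 131.2 and 111.9 CPM in WT. Phlpp2 KO lay just above WT, and the other knockouts overlapped it, with log2 fold changes of −0.06 (SE 0.10) in Phlpp1 KO, 0.16 (SE 0.10) in Phlpp2 KO and 0.04 (SE 0.10) in Phlpp1/2 KO. The ratio of H2-K1 to B2m was accordingly 0.402 to 0.465 in Phlpp1 KO, 0.456 to 0.479 in Phlpp2 KO and 0.415 to 0.483 in Phlpp1/2 KO, against 0.537 to 0.616 in WT. All 9 knockout libraries were below all WT libraries in that ratio.

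The peptide transporter subunits were lower alongside the heavy chains. Tap1 had 17.1, 18.9 and 19.8 CPM in Phlpp1 KO, 20.4, 24.6 and 23.5 CPM in Phlpp2 KO and 18.3, 21.0 and 19.3 CPM in Phlpp1/2 KO, against 25.0, 24.3 and 27.3 CPM in WT. Phlpp1 KO and Phlpp1/2 KO did not overlap WT, and Phlpp2 KO did through 1 library. The log2 fold change was −0.46 (SE 0.09) in Phlpp1 KO, −0.16 (SE 0.09) in Phlpp2 KO and −0.38 (SE 0.09) in Phlpp1/2 KO. Tap2 had 2.46, 3.29 and 4.66 CPM in Phlpp1 KO, 3.00, 6.55 and 4.91 CPM in Phlpp2 KO and 3.80, 3.92 and 4.28 CPM in Phlpp1/2 KO, against 5.75, 7.03 and 5.31 CPM in WT. It rested on 73 to 198 counts a library and had the same order of groups, with log2 fold changes of −0.81 (SE 0.27) in Phlpp1 KO, −0.32 (SE 0.26) in Phlpp2 KO and −0.59 (SE 0.26) in Phlpp1/2 KO. Tap1 shares 212 exon bases with Psmb9 on the opposite strand, and Psmb9 itself held 5 to 19 counts a library. Without both low-Xist libraries Tap1 was at −0.38 in Phlpp1 KO and −0.33 in Phlpp1/2 KO, and Tap2 at −0.59 in Phlpp1 KO and −0.55 in Phlpp1/2 KO.

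**Figure D3:**
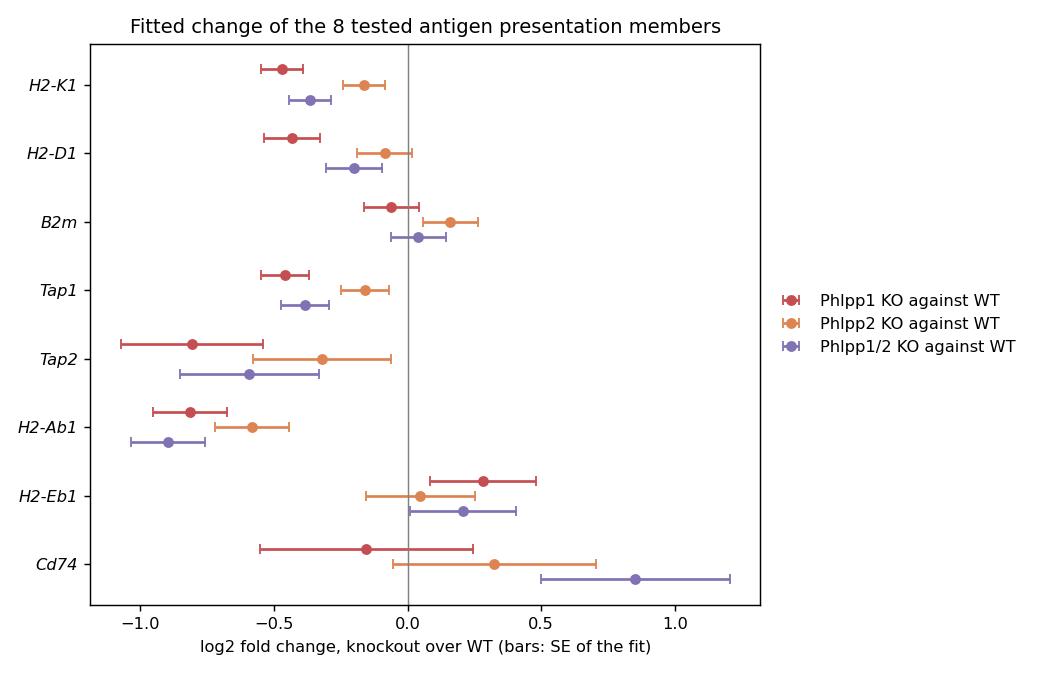
Fitted log2 fold change of each knockout over WT for the 8 tested members, with bars of 1 SE. In Phlpp1 KO and Phlpp1/2 KO H2-K1, H2-D1, Tap1, Tap2 and H2-Ab1 lie left of 0, from −0.20 to −0.90, while H2-Eb1 lies right of 0.

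The 8 members that passed the filter on low counts can be set beside all 16565 tested genes, with nothing read from the comparison since these values chose them. H2-Aa and Ciita did not pass it. At an adjusted p under 0.05, 3 members (H2-Ab1, H2-K1 and Tap1) were called in Phlpp1 KO against WT, where 0.537% of all genes were. In Phlpp2 KO against WT 0 members were called, where 0.121% of all genes were. With a replicate block over all 12 libraries the count of all genes called there was 84 in place of 20, and members called 0. In Phlpp1/2 KO against WT 1 member (H2-Ab1) was called, where 0.235% of all genes were. Between Phlpp1 KO and Phlpp2 KO, and for the interaction, 0 members were called, where 0.151% and 0.0483% of all genes were. Of the 8, 5 lay below all WT libraries in Phlpp1 KO (background 13.3%), 1 in Phlpp2 KO (8.87%) and 5 in Phlpp1/2 KO (10.3%). Leaving out 1 library at a time gave 0 to 3 called members in Phlpp1 KO, beside 16 to 647 of all genes. It was 0 members without WT 1, without WT 2 or without Phlpp1 KO 2. Without both low-Xist libraries 1 member was called, H2-Ab1, beside 18 of all genes. In Phlpp1/2 KO 0 members were called without any 1 WT library, without Phlpp1/2 KO 1 or without Phlpp1/2 KO 3. All refits that left out 1 library called 18 to 57 of all genes there. DESeq2 called 5 members in Phlpp1 KO, 1 in Phlpp2 KO and 3 in Phlpp1/2 KO against WT, and 0 in the other comparisons. Of all 16565 genes DESeq2 called 990, 317 and 168 in the same order, far more than edgeR. Between Phlpp1 KO and Phlpp2 KO it called 176, and for the interaction 650.

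Across the 12 libraries log2 CPM of the class I heavy chains and transporter subunits correlated positively, and H2-Ab1 correlated with them to differing degrees. Pearson's r of log2 CPM was 0.90 for H2-K1 with H2-D1, 0.86 for H2-K1 with Tap1, 0.80 for H2-K1 with Tap2 and 0.47 for H2-K1 with B2m. After each genotype's mean was subtracted, r was 0.87 for H2-K1 with H2-D1, 0.27 with Tap1, 0.57 with Tap2 and 0.75 with B2m. H2-Ab1 with H2-K1 had r = 0.66 over the libraries and −0.69 after the genotype means were subtracted. With H2-D1 it had 0.39 and −0.72, with B2m −0.21 and −0.72, and with Tap1 0.78 and 0.08. In Phlpp1 KO, Phlpp1/2 KO and WT the library lowest in H2-K1 had the most H2-Ab1, and in Phlpp1 KO this was a low-Xist library. Phlpp2 KO went the other way, as its library highest in H2-K1 had the most H2-Ab1. No r was computed without the low-Xist libraries. H2-Eb1 had negative r with all 6 other members that averaged at least 1 CPM, from −0.31 to −0.43. These values share libraries, depth and normalization and describe 12 points in 4 clusters.

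**Figure D4:**
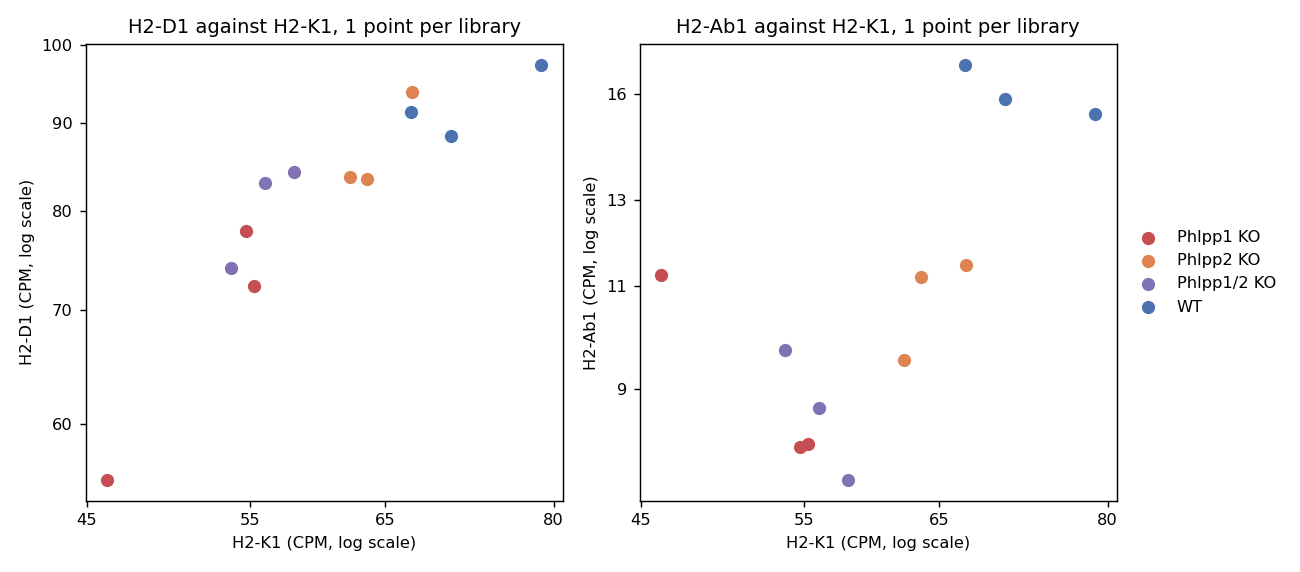
CPM of H2-D1 (left) and H2-Ab1 (right) against H2-K1 on log axes, 1 point per library, coloured by genotype. H2-D1 and H2-K1 have r = 0.90, and H2-Ab1 separates WT, at 15.4 CPM or more, from every knockout library.

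The genes most like H2-Ab1 over the 12 libraries, among 13398 genes averaging at least 1 CPM, were Oaz2 (r = 0.93), which encodes a brake on polyamine synthesis, the histone deubiquitinase gene Usp22 (0.93), the thioredoxin-binding protein gene Txnip (0.93), Saraf (0.93), a regulator of store-operated calcium entry, and the chloride channel gene Clic4 (0.91). None of these is an MHC gene, but the members were left out of the ranking. Those most like H2-K1 were the signalling adaptor gene Traf3ip2 (0.95), Prr13 (0.94), the amino acid transporter gene Slc43a2 (0.94), Iqsec2 (0.93) and the co-chaperone gene Bag3 (0.92). Both rankings also left out predicted and clone-named genes, pseudogenes and genes without a symbol. Txnip averaged 155.9 CPM in Phlpp1 KO, 171.4 CPM in Phlpp2 KO and 145.4 CPM in Phlpp1/2 KO, against 198.3 CPM in WT. Traf3ip2 averaged 13.5 CPM in Phlpp1 KO, 18.4 CPM in Phlpp2 KO and 14.96 CPM in Phlpp1/2 KO, against 19.3 CPM in WT.

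Beyond the members, 81 other genes of antigen presentation in 6 lists were looked up, and 66 of them could be tested. These lists, too, were chosen with earlier results of these data known, which limits what the shares below can show. In Phlpp1 KO against WT 53 of the 66 were lower, with a median log2 fold change of −0.16, where 52.3% of all tested genes were lower with a median of −0.01. edgeR called 3, all lower (4.55% of the 66, against 0.537% of all tested genes), and 25 had an unadjusted p under 0.05 (37.9%, against 20.4% of all tested genes). Without both low-Xist libraries edgeR called 0 of 66, and 19 had an unadjusted p under 0.05, beside 2737 of all 16728 genes then tested. In Phlpp1/2 KO 50 of 66 were lower (median −0.09; all genes 50.4% and −0.00), with 1 called lower by edgeR and 10 at an unadjusted p under 0.05 (15.2%, against 11.1%). In Phlpp2 KO 42 of 66 were lower (median −0.06; all genes 53.9% and −0.02), and edgeR called 0, also with the replicate block, with 8 at an unadjusted p under 0.05 (12.1%, against 13.8%) and 0 called by DESeq2 or limma-voom. Between Phlpp1 KO and Phlpp2 KO edgeR and limma-voom called 0 and DESeq2 3, with 17 at an unadjusted p under 0.05 (25.8%, against 10.4%). For the interaction edgeR, DESeq2 and limma-voom called 0, with 19 at an unadjusted p under 0.05 (28.8%, against 14.5%).

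The smallest adjusted p belonged to Fcgrt, the class I-like heavy chain of the neonatal Fc receptor, which pairs with B2m and rescues immunoglobulin G from lysosomes. It had 23.3, 23.4 and 24.9 CPM in Phlpp1 KO, 28.4, 33.4 and 32.2 CPM in Phlpp2 KO and 26.8, 25.0 and 27.5 CPM in Phlpp1/2 KO, against 32.5, 36.7 and 37.5 CPM in WT. Fcgrt fell in Phlpp1 KO (log2 fold change −0.58, SE 0.08, edgeR adjusted p = 0.00632) and in Phlpp1/2 KO (−0.43, SE 0.08, edgeR adjusted p = 0.0483), with no overlap with WT in either knockout. In Phlpp2 KO it was −0.18 (SE 0.08, edgeR adjusted p = 0.329), and its interaction was 0.33 (SE 0.11, edgeR adjusted p = 0.183). The Phlpp1 KO call was lost without WT 2 (edgeR adjusted p = 0.0562), Phlpp1 KO 2 (0.0584) or both low-Xist libraries (0.0756). The Phlpp1/2 KO call was lost in 11 of the 12 edgeR refits that left out 1 library, all but the one without Phlpp2 KO 1, where adjusted p ranged from 0.0203 to 0.252.

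Lgmn, the asparagine-specific protease that helps to cut the invariant chain and antigens in endosomes, fell in Phlpp1 KO. It had 25.9, 26.8 and 30.0 CPM in Phlpp1 KO, 34.0, 37.2 and 34.6 CPM in Phlpp2 KO and 33.9, 30.7 and 30.7 CPM in Phlpp1/2 KO, against 36.3, 36.7 and 37.6 CPM in WT. Its log2 fold change in Phlpp1 KO was −0.42 (SE 0.07, edgeR adjusted p = 0.0200), and Phlpp1 KO against Phlpp2 KO gave −0.36 (SE 0.07, edgeR adjusted p = 0.0729). The call was lost when any 1 WT library, Phlpp1 KO 1 or 2, or both low-Xist libraries were left out, with edgeR adjusted p from 0.0809 to 0.134. Of the 8 tested class II companions all 8 were lower in Phlpp1 KO, with a median log2 fold change of −0.30, and Lgmn was the 1 called by edgeR. Limma-voom also called 1, and DESeq2 called 2, Lgmn and H2-DMb1. H2-DMb1 was also called there with no filter and with only the libraries compared. In Phlpp1/2 KO DESeq2 called 1, H2-DMb1, and edgeR and limma-voom 0. All 8 were also lower in Phlpp2 KO (median −0.13), where edgeR, DESeq2 and limma-voom called 0 and 0 had an unadjusted p under 0.05. H2-DMb1, a chain of the peptide exchanger, had −0.75 (SE 0.19, edgeR adjusted p = 0.0855), H2-DMa −0.25, the cathepsin gene Ctsb −0.27 (SE 0.10, edgeR adjusted p = 0.149) and the thiol reductase gene Ifi30 −0.18 (SE 0.08, edgeR adjusted p = 0.253).

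Irf9, the DNA-binding subunit of the complex that carries type I interferon signals to the nucleus, fell in Phlpp1 KO. It had 11.04, 11.3 and 11.7 CPM in Phlpp1 KO, 13.5, 17.1 and 13.1 CPM in Phlpp2 KO and 13.8, 12.4 and 14.5 CPM in Phlpp1/2 KO, against 18.5, 18.4 and 15.8 CPM in WT. Its log2 fold change in Phlpp1 KO was −0.63 (SE 0.11, edgeR adjusted p = 0.0271). The call was lost without WT 1, WT 2 or any 1 Phlpp1 KO library, and without both low-Xist libraries, with edgeR adjusted p from 0.0725 to 0.155. In this list of interferon signalling 12 of 15 tested genes were lower in Phlpp1 KO (median −0.12), and edgeR and limma-voom called 1 and DESeq2 3 (Irf9, Stat2 and Irf2). Its partner Stat2 had −0.40 (SE 0.10, edgeR adjusted p = 0.0851), and Irf2 −0.31 (SE 0.08, edgeR adjusted p = 0.0851). The receptor chain Ifnar2 had −0.24 (SE 0.08, edgeR adjusted p = 0.139), and Irf1, which binds MHC promoters after interferon gamma, −0.10 (edgeR adjusted p = 0.685). The ligands Ifng and Ifnb1 had 0 counts in every library, which allows up to 0.0886 to 0.136 CPM a library.

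Among the other class I chains edgeR called only Fcgrt in Phlpp1 KO and in Phlpp1/2 KO against WT. In Phlpp1 KO 12 of 13 tested chains were lower with a median log2 fold change of −0.42, and in Phlpp1/2 KO 13 of 13 with −0.24. DESeq2 called 2 in Phlpp1 KO, with H2-T22 besides Fcgrt, and 1 in Phlpp1/2 KO. The non-classical chain H2-T22 had −0.42 (SE 0.09, edgeR adjusted p = 0.0560) in Phlpp1 KO. It was also called with no filter, with only the libraries compared, with the replicate block and in 3 of the 12 refits that left out 1 library. In the same knockout H2-Q4 had −0.38 (SE 0.17, edgeR adjusted p = 0.225) and H2-T23, the ligand of inhibitory natural killer receptors, −0.71 (SE 0.33, edgeR adjusted p = 0.249). In peptide supply and loading 13 of 17 were lower (median −0.12) and 0 were called by edgeR, with 7 at an unadjusted p under 0.05, 1 called by DESeq2 and 0 by limma-voom. Tapbp, the chaperone that bridges the transporter and the heavy chain, had −0.44 (SE 0.11, edgeR adjusted p = 0.0866), Psmb10 −0.22 (SE 0.08, edgeR adjusted p = 0.142), Psme2 −0.36 (SE 0.13, edgeR adjusted p = 0.150) and Psmb6 −0.15 (SE 0.06, edgeR adjusted p = 0.158).

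The immunoproteasome subunits that interferon induces, Psmb8 and Psmb9, were low in every library. Psmb8 ranged from 0.118 to 0.236 CPM in Phlpp1 KO, 0.326 to 0.422 CPM in Phlpp2 KO and 0.386 to 0.459 CPM in Phlpp1/2 KO, against 0.360 to 0.497 CPM in WT. Per kb of transcript Psmb8 averaged 0.268 CPM in WT, while the constitutive subunit it replaces, Psmb5, averaged 140.4 CPM. Its log2 fold change in Phlpp1 KO was −1.39 (SE 0.36, edgeR adjusted p = 0.0883) on 3 to 15 counts a library. Psmb9 had 0.236 to 0.313 CPM in Phlpp1 KO, 0.460 to 0.496 CPM in Phlpp2 KO and 0.354 to 0.561 CPM in Phlpp1/2 KO, against 0.226 to 0.613 CPM in WT. Each knockout overlapped WT, and Phlpp1 KO lay below both other knockouts (against Phlpp2 KO −0.75, SE 0.37, edgeR adjusted p = 0.507).

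Of 9 tested MHC promoter factors and ubiquitin ligases 6 were lower in Phlpp1 KO (median −0.05), 0 were called by edgeR and 4 had an unadjusted p under 0.05, with 1 called by DESeq2 and 0 by limma-voom. Nlrc5, the class I coactivator, had 0.548 to 1.14 CPM in Phlpp1 KO, 0.651 to 1.69 CPM in Phlpp2 KO and 0.916 to 1.26 CPM in Phlpp1/2 KO, against 1.72 to 1.91 CPM in WT. Every knockout library was below every WT library in Nlrc5, on 14 to 53 counts a library. The knockouts share the WT libraries, and the share of all genes with this pattern was not computed. Taken singly, 13.3% of all tested genes lay below all WT libraries in Phlpp1 KO, 8.87% in Phlpp2 KO and 10.3% in Phlpp1/2 KO. The log2 fold change of Nlrc5 in Phlpp1 KO was −0.98 (SE 0.32, edgeR adjusted p = 0.125). Rfx5, part of the X box complex, had −0.17 (edgeR adjusted p = 0.380), Nfyb 0.26 (SE 0.08, edgeR adjusted p = 0.110), Creb1 0.41 (SE 0.14, edgeR adjusted p = 0.142) and the ubiquitin ligase gene March8 −0.12 (SE 0.05, edgeR adjusted p = 0.226). The costimulatory and checkpoint ligands gave 0 calls by edgeR, DESeq2 or limma-voom, with 1 at an unadjusted p under 0.05 in Phlpp2 KO against WT, 1 between Phlpp1 KO and Phlpp2 KO, 1 for the interaction and 0 in the other 2 comparisons. Cd80 had 19.2 to 23.8 CPM in Phlpp1 KO, 23.2 to 28.9 CPM in Phlpp2 KO and 19.7 to 21.4 CPM in Phlpp1/2 KO, against 18.7 to 23.5 CPM in WT. Its closest comparison was Phlpp2 KO against WT (0.28, SE 0.11, edgeR adjusted p = 0.280). Icosl and Cd274 averaged 1.66 and 1.13 CPM, with edgeR adjusted p of at least 0.634 and 0.859 over the 5 comparisons.

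**Figure D5:**
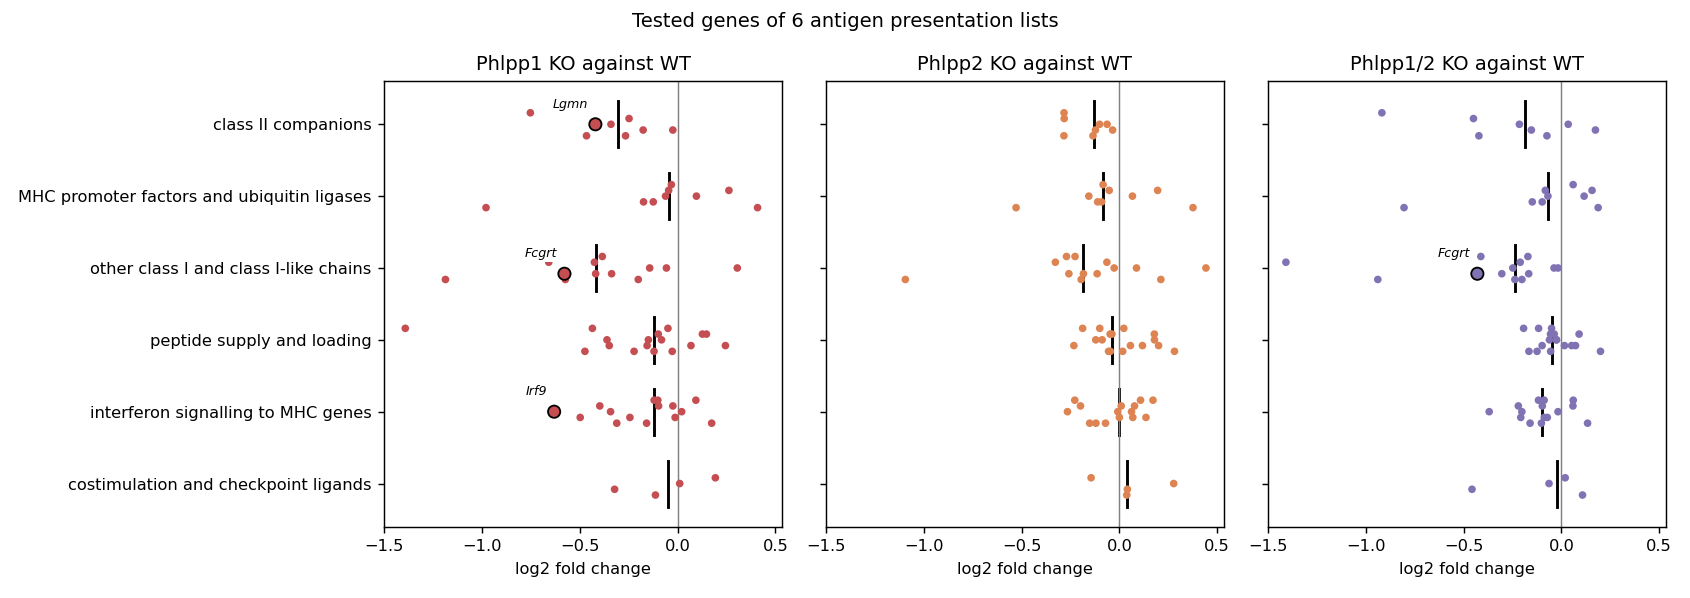
Log2 fold change of each tested gene of the 6 lists in Phlpp1 KO, Phlpp2 KO and Phlpp1/2 KO against WT. Small points are genes, outlined points are calls at an adjusted p under 0.05, and black bars are list medians. The calls are Fcgrt, Lgmn and Irf9 in Phlpp1 KO and Fcgrt in Phlpp1/2 KO, and the median of the other class I chains is −0.42 in Phlpp1 KO.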

How the data were processed

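The authors deposited 1 table of raw counts per gene for the 12 libraries. Per the submitters' processing notes, the tools were bcl2fastq 2.17, STAR 2.5.2b and featureCounts (Subread 1.5.2), with build mm10. Per the labels' protocols, libraries came from the NEBNext Ultra II RNA kit. How multi-mapping reads were counted, the strand setting and the annotation release were not stated in these sources. Genes without a symbol numbered 174 and held 0.00419% of counts.

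Counts were fitted with edgeR 4.0.16 in R 4.3.3 over all 12 libraries: filterByExpr (16565 genes kept), TMM, and a robust quasi-likelihood fit of 4 genotype means with 8 residual degrees of freedom. P-values of 5 comparisons were adjusted by Benjamini-Hochberg over all tested genes, and a call is an adjusted p under 0.05. The fit was tested on simulated data. CPM divides counts by TMM-scaled totals of the tested genes, and correlations use log2(CPM + 0.25). The labels do not say that a replicate number marks a shared litter or day. Checked on the counts, deviations from the group means of same-numbered libraries had r = 0.14, 0.24 and 0.21 for Phlpp2 KO with WT. Differently numbered libraries of different genotypes ranged from −0.44 to 0.45, so these values do not stand out. Phlpp2 KO against WT is also given with a replicate block, fitted over all 12 libraries and not over this comparison alone. Positions and transcript lengths came from GENCODE vM21.

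The members and lists were chosen with earlier results of these data known. Pathway genes were named if called in any comparison, if among up to 4 per list with the smallest adjusted p in a knockout against WT and a mean of at least 1 CPM, or if on a fixed set of regulators and chains (Irf1, Irf9, Nlrc5, Rfx5, Tapbp, Psmb8, Psmb9, H2-DMa, H2-T23, H2-Ea and 1 gene not reported here). Alternatives were DESeq2 1.42.0, limma-voom (limma 3.58.1), RLE scaling, no filter, only the libraries compared, a replicate block, summed class I chains, and libraries left out.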

Additional observations from a re-analysis of the deposited data

How the results depend on the processing

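Counts of calls depended strongly on the settings, and the cause was not tested. Genes called in Phlpp1 KO against WT, Phlpp2 KO against WT, Phlpp1/2 KO against WT, Phlpp1 KO against Phlpp2 KO and the interaction numbered 89, 20, 39, 25 and 8. In that order they were 990, 317, 168, 176 and 650 by DESeq2, and 461, 110, 102, 119 and 183 with no filter. In Phlpp1 KO against WT the calls were 35 higher and 54 lower, but 595 and 395 by DESeq2, 259 and 202 with no filter, 772 and 391 with only the libraries compared (1163 in all) and 166 and 79 with the replicate block. Limma-voom called 13 in Phlpp2 KO against WT. Without both low-Xist libraries there were 18 in Phlpp1 KO against WT, 11 between the single knockouts and 4 in the interaction. Leaving out 1 library at a time gave 16 to 647, 9 to 159, 18 to 57, 8 to 207 and 5 to 1196 calls in the first order. Fewest Phlpp1 KO calls came without WT 2 and most without Phlpp1/2 KO 3.

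Antigen presentation genes called numbered 3, 0, 1, 0 and 0 in the same order. DESeq2 called 9, 0, 2, 3 and 0, and no filter gave 6, 0, 2, 3 and 0. With only the libraries compared they were 13 in Phlpp1 KO and 0 in Phlpp1/2 KO, a setting that could not be made for the interaction. Without both low-Xist libraries both were 0. Leaving out 1 library gave 0 to 6, 0 to 0, 0 to 2, 0 to 3 and 0 to 3.

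Deviations of same-numbered libraries correlated from −0.30 to 0.48, with every pair over 0.1 for Phlpp2 KO with WT and for no other 2 genotypes, and 5 of 12 libraries correlated best with their own number. The replicate block over all 12 libraries gave 245, 84, 29, 15 and 308 calls, and 4, 0, 0, 0 and 1 antigen presentation genes.

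Of 772 refitted member values 758 moved by less than 1 SD between libraries, and 14 by more (10 for Cd74, 2 for H2-K1, 2 for H2-D1). Of 569 refitted values of named pathway genes 515 kept direction and side of the threshold, 29 lost the call, 23 gained one and 2 turned: Cd274 in Phlpp1 KO against WT was 0.02 without WT 2 and 0.16 without Phlpp1 KO 2, and −0.39 at the lowest, without Phlpp1 KO 3. Members at 0 to 25 counts a library (H2-Aa, Cd74, Ciita) were limited by depth.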
